A study of Mus musculus with 18 samples.

Results

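The 26S proteasome is the protease that degrades ubiquitin-marked proteins in the nucleus and the cytoplasm of eukaryotic cells. The genes described here are the mouse protein-coding genes of the GENCODE M21 annotation whose symbols begin with Psma, Psmb, Psmc, Psmd, Psme, Psmf or Psmg followed by a digit. There are 50 of them among the 54446 genes counted in each library. Of the 50, 47 passed the filter on low counts in both experiments, and Psmb8, Psmb11 and Psme2b did not. One member, Psmc3ip, encodes a factor of meiotic recombination named for binding the product of Psmc3 and is no proteasome subunit; it is kept in the counts of members because its symbol fits the rule, and in none of the roles below.

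The study sequenced nuclear RNA of embryonic stem cells from C57BL/6 mice, as 18 libraries in 9 groups of 2. Ythdc1 cKO cells (conditional knockout of Ythdc1, the nuclear reader of the RNA mark N6-methyladenosine) and Ythdc1 control cells were each collected after 0, 3 and 6 h of actinomycin D at 5 µg/ml, a drug that blocks transcription. Cells labelled Mettl3 KO1 and KO2 (knockout of Mettl3, the catalytic subunit of the methyltransferase that writes this mark) and a Mettl3 control were collected at 0 h. All groups were grown with serum, LIF, CHIR99021 and PD0325901, which keep stem cells in the naive state. The labels do not name the allele, the recombinase or the time of the conditional deletion, and KO1 and KO2 each stand for 1 label with 2 libraries. They do not say whether the 2 libraries of a group came from separate cultures, so p-values measure the spread between libraries, which may be technical.

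The barrel of the proteasome, the 20S core, is built of alpha rings (Psma genes) and beta rings (Psmb genes), with the proteolytic sites inside. The 19S cap binds ubiquitinated proteins, removes the ubiquitin and feeds the unfolded chain into the core; it holds a ring of ATPases (Psmc genes) and subunits without ATPase activity (most Psmd genes). Chaperones (Psmg genes, Psmd5, Psmd9 and Psmd10) help to assemble the particle, Psme genes encode other activators of the core, and Psmf1 an inhibitor. In mammalian cells proteasome genes are known to be induced together when proteasome activity is short, through the transcription factor encoded by Nfe2l1, which binds antioxidant response elements in promoters.

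Promoter sequence from RefSeq (build GRCm38.p6, mm10) was available for 42 of the 50 members, as 45 windows from 250 bases before to 50 bases after a gene start. The windows below belong to catalytic subunits, a cap scaffold and an activator whose values are given later. Capitals mark the core of the antioxidant response element, TGACNNNGC, in the windows of Psmb5 and Psmb6 and, on the opposite strand, as the second run of capitals in that of Psme4. They also mark the core of ETS factor sites, CCGGAAG, on the opposite strand in the window of Psmd2 and as the first run in that of Psme4.
Psmb5 promoter, chr14:54617946-54618245, minus strand: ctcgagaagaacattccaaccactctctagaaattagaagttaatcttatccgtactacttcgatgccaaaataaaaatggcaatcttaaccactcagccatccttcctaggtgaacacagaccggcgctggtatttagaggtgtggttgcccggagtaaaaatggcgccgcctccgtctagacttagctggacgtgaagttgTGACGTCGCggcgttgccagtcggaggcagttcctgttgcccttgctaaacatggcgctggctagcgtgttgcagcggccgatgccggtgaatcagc
Psmb6 promoter, chr11:70525107-70525406, plus strand: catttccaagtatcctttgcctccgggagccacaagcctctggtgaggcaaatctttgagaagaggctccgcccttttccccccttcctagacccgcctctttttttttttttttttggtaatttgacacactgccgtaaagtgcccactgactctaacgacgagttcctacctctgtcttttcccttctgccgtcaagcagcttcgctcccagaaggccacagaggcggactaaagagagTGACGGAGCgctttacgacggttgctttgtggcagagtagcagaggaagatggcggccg
Psmd2 promoter, chr16:20651402-20651701, plus strand: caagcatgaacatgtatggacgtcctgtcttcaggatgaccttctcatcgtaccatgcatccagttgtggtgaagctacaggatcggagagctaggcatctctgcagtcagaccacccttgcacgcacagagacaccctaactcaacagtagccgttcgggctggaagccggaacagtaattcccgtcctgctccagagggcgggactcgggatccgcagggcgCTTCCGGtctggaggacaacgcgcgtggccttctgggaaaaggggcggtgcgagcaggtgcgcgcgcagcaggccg
Psme4 promoter, chr11:30771525-30771824, plus strand: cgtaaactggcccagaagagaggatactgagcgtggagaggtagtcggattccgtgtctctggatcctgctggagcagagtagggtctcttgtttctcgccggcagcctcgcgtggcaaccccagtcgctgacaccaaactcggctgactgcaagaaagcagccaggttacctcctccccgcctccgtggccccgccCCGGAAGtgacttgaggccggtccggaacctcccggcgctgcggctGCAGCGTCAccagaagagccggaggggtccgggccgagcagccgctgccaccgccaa

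The antioxidant response element core was found on either strand in 13.33% of the 45 member windows and in 12.39% of the 32851 windows of all genes. The ETS core was found in 35.56% of member windows, against 8.858% of all windows. The core of nuclear respiratory factor 1 sites was found in 15.56%, against 4.603%, and the CCAAT box, CCAAT, in 33.33%, against 37.41%. A match is a run of letters in a window, not a site shown to be bound.

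Libraries held between 4950973 and 30989044 gene reads and between 3932 and 33396 spike-in reads. The cKO libraries at 3 h stood apart, with 272 to 277 spike-in reads per 1000000 gene reads, against 772 to 1890 in the other Ythdc1 libraries. In the Ythdc1 experiment, the part of uniquely aligned reads that fell in no gene was 49.7% to 53.6% at 0 h and 18% to 24.5% after the drug. Ythdc1 had 143 and 120.4 CPM (reads per 1000000 gene reads, scaled by TMM factors) in cKO libraries at 0 h, against 145 and 132 CPM in control libraries, and 14.5 and 15.3 CPM in cKO at 3 h, against 51.9 and 50.3 CPM in control. Mettl3 had 32.6 and 31.3 CPM in KO1 and 22.7 and 22.1 CPM in KO2, against 36.6 and 31.9 CPM in the Mettl3 control. The log2 fold change of the targeted gene was -0.07 (SE 0.08, edgeR adjusted p = 0.557) in cKO at 0 h, -0.10 (SE 0.08, edgeR adjusted p = 0.316) in KO1 and -0.61 (SE 0.08, edgeR adjusted p = 7.45e-10) in KO2, so it passed the test in KO2 and in neither of the others. A count over a whole gene does not check a deletion of part of it. All 10 embryonic stem cell markers were detected in every group.

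The share of the gene reads taken by the members together varied between conditions. They made up 0.476% of gene reads in cKO libraries at 0 h, against 0.608% in control libraries. At 3 h the shares were 0.799% in cKO and 0.846% in control, and at 6 h they were 0.736% in cKO and 0.806% in control. In the Mettl3 experiment the shares were 0.439% in KO1 and 0.384% in KO2, against 0.385% in control.

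**Figure D1:**
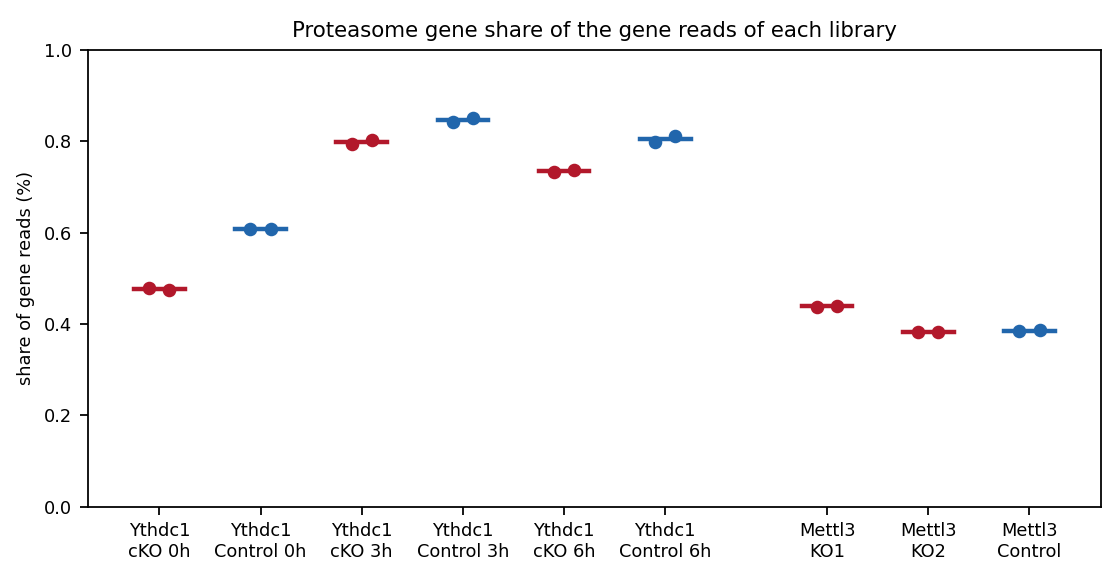
Share of gene reads (%, vertical axis) taken by the 50 proteasome genes in each of the 18 libraries; points are libraries and lines are means of the 2 libraries of a group. The cKO libraries at 0 h, with a mean of 0.476%, lie below the control libraries, with a mean of 0.608%, and the Ythdc1 libraries after actinomycin D lie above those at 0 h.

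Levels per kb of exon set genes beside each other only roughly. The length used is the union of all annotated exons, which can differ from that of the transcripts present. At 0 h Psmb6, the caspase-like catalytic subunit, had 107.6 CPM per kb in cKO and 149.3 in control libraries, the highest mean level of the 50 in control. Next in control came Psmc5, an ATPase, at 87.6 CPM per kb in cKO and 131.3 in control, and Psmd2, a scaffold subunit of the cap, at 75.4 and 94.4. Psme4, the nuclear activator PA200, stood among these core and cap genes at 80.5 CPM per kb in cKO and 83.5 in control. The median level was 24.7 CPM per kb in cKO and 34.5 in control for alpha ring genes, 49.3 and 64.5 for beta ring genes without activity, and 45.7 and 58.7 for the constitutive catalytic genes. It was 45.5 and 64.1 CPM per kb for the ATPases, 38.5 and 44.6 for the other cap subunits, and 8.51 and 10.2 for the assembly chaperones. Among the roles just given the medians were lowest for the chaperones, with alpha ring genes between these and the other ring and cap genes. Activators and the inhibitor had lower medians, 6.33 CPM per kb in cKO and 8.54 in control. The inducible or tissue-specific catalytic genes were lowest, at 0.185 and 0.205. Psma8, the alpha subunit known from the testis, had 2.68 CPM per kb in cKO and 2.42 in control.

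**Figure D2:**
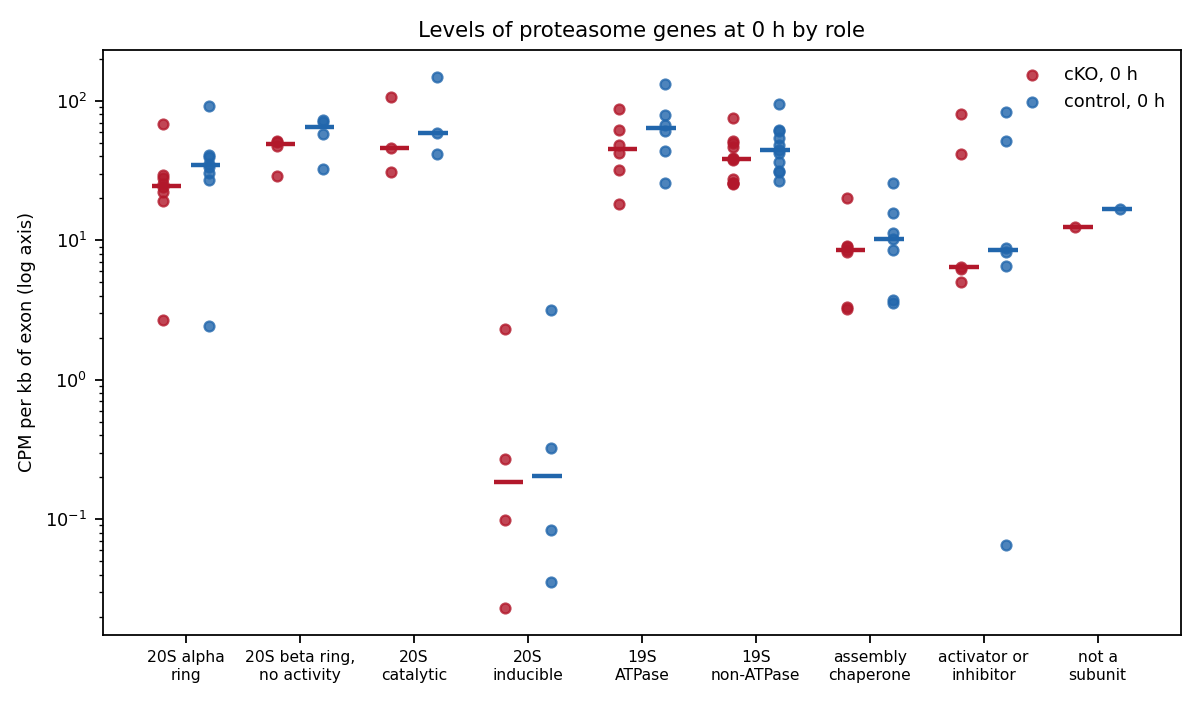
Mean level of each member at 0 h (CPM per kb of exon, log axis) by role, cKO left of control; a gene at 0 in a group is not drawn there. The inducible catalytic genes have a median of 0.185 CPM per kb in cKO and 0.205 in control, far below the ring and cap genes.

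The inducible catalytic subunits replace the constitutive ones in the immunoproteasome of immune and interferon-treated cells. Per kb, Psmb8 stood at 0.215% of Psmb5 in cKO libraries at 0 h and 0.143% in control, and Psmb9 at 0.252% and 0.218% of Psmb6. Psmb10 was the highest of the inducible genes, at 7.56% of Psmb7 in cKO and 7.58% in control at 0 h, and at 17.9% in KO1, 11.5% in KO2 and 18.4% in the Mettl3 control. These ratios depend on the exon lengths used, 3381 bases for Psmb8 against 899 for Psmb5, and 1705 for Psmb10 against 3421 for Psmb7. Psmb8 had 0 reads in both KO1 libraries, which allows up to 0.0968 and 0.129 reads per 1000000 gene reads (3 reads, counting error only). Psmb11, the subunit known from thymic epithelium, had 0 reads in both control libraries at 3 h, which allows up to 0.226 and 0.20 reads per 1000000 gene reads, and at 6 h, which allows up to 0.311 and 0.245. Psme2b, a copy of Psme2, had 0 reads in both cKO libraries at 0 h, which allows up to 0.330 and 0.344 reads per 1000000 gene reads. Leukocyte markers, for cells that carry the immunoproteasome, summed to 96.2 to 103 CPM in cKO and 44.4 to 48.3 CPM in control libraries at 0 h, with Tyrobp at 0 in both. Of these 6 markers only 3 passed the filter on low counts. In cKO against control at 0 h, 1 of them was called higher and 0 lower, with a median log2 fold change of 0.319.

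Some members share exon bases with another gene, and whether the counting used the strand is not given in the sources used here. The overlap with a gene on the opposite strand covered 25.5% of the exon bases of Psmd9, 21.2% of Psmc3ip, 14.7% of Psmb8, 11.8% of Psmb7, 10.1% of Psmd13, 8.25% of Psmc3, 5.79% of Psmb9, 4.81% of Psma4, 4.54% of Psma5, 3.47% of Psmd1, 0.634% of Psme1 and 0.342% of Psmd3. On the same strand, the miRNA gene Mir686 lay within 12.1% of the exon bases of Psmb5, and protein-coding genes shared 9.68% of those of Psmg3, 4.90% of Psme2b and 4.14% of Psmd1. The values of these genes are uncertain to that extent.

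Without the drug, proteasome genes were lower in cKO than in control nuclei. Of the 47 tested, 36 fell, Psmc3ip among them, and 0 rose (edgeR quasi-likelihood test, Benjamini-Hochberg adjusted p under 0.05 over all genes tested), where 15.8% of all 17900 genes fell and 13.5% rose. The median log2 fold change of the 47 was -0.356, and that of all genes tested was 0.0138. The fall ran through the whole particle: 7 of 8 alpha ring genes, 4 of 4 beta ring genes without activity, 3 of 3 constitutive catalytic genes, 6 of 6 ATPases and 9 of 11 other cap subunits fell. Of the assembly chaperones 3 of 7 fell, and of the activators and inhibitor 3 of 5. In bulk nuclei, fewer cells of a type and less RNA per cell cannot be told apart.

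Among the core genes, Psma7, an alpha ring subunit, had 78.9 and 76.4 CPM in cKO libraries, against 123 and 119 CPM in control libraries. Both cKO libraries were below both control libraries, and the log2 fold change was -0.64 (SE 0.07, edgeR adjusted p = 9.69e-10). Psmb5, the chymotrypsin-like subunit and main target of proteasome inhibitors, had 41.8 and 40.3 CPM in cKO, against 53.0 and 52.5 CPM in control, and its log2 fold change was -0.36 (SE 0.08, edgeR adjusted p = 0.000924). Psmb6 had 204 and 199 CPM in cKO, against 275 and 284 CPM in control, and fell by 0.47 (SE 0.05) on the log2 scale. Psmb7, the trypsin-like subunit, had 107 and 103 CPM in cKO, against 146 and 139 CPM in control, and fell by 0.44 (SE 0.06). None of the 3 constitutive catalytic genes had overlapping groups. The share of all genes without overlap is not given here, so this count does not show a trait of these genes. Of the inducible ones, Psmb10 had 3.91 and 4.02 CPM in cKO, against 5.74 and 5.04 CPM in control, with a log2 fold change of -0.43 (SE 0.23), and Psmb9 stood at -0.28 (SE 0.47); neither passed the test.

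In the cap, Psmc5 had 124 and 120.2 CPM in cKO, against 185 and 181 CPM in control, a log2 fold change of -0.58 (SE 0.06, edgeR adjusted p = 1.73e-09). All 6 ATPases lay close together, from -0.58 for Psmc5 to -0.37 for Psmc1. The cap subunits without ATPase activity ran from -0.40 for Psmd14, the deubiquitinase of the cap, to -0.08 for Psmd6, which did not pass.

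Chaperones and activators were more uneven. Psmg4, a chaperone of the alpha ring, had 5.43 and 4.47 CPM in cKO, against 9.54 and 7.79 CPM in control, and the lowest log2 fold change of the 47, -0.79 (SE 0.23, edgeR adjusted p = 0.00696). Psme2, which with Psme1 forms the interferon-inducible activator PA28, had 9.66 and 8.15 CPM in cKO, against 15.4 and 13.6 CPM in control, and fell by 0.69 (SE 0.16) on the log2 scale. Its partner Psme1 fell by 0.51 (SE 0.14), and Psme3, the nuclear member of that family, by 0.30 (SE 0.07). Psme4 had 701 and 649 CPM in cKO, against 712 and 687 CPM in control; these overlap, and the log2 fold change was -0.05 (SE 0.05, edgeR adjusted p = 0.463). Psmf1 stood at -0.03 (SE 0.10) and Psma8 at 0.17 (SE 0.22), and neither passed. Psmc3ip, which is no subunit, fell by 0.41 (SE 0.12). The call of Psmg4 was lost without control replicate 1, at -0.65, or cKO replicate 2, at -0.66, and that of Psme1 without control replicate 2, at -0.40.

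**Figure D3:**
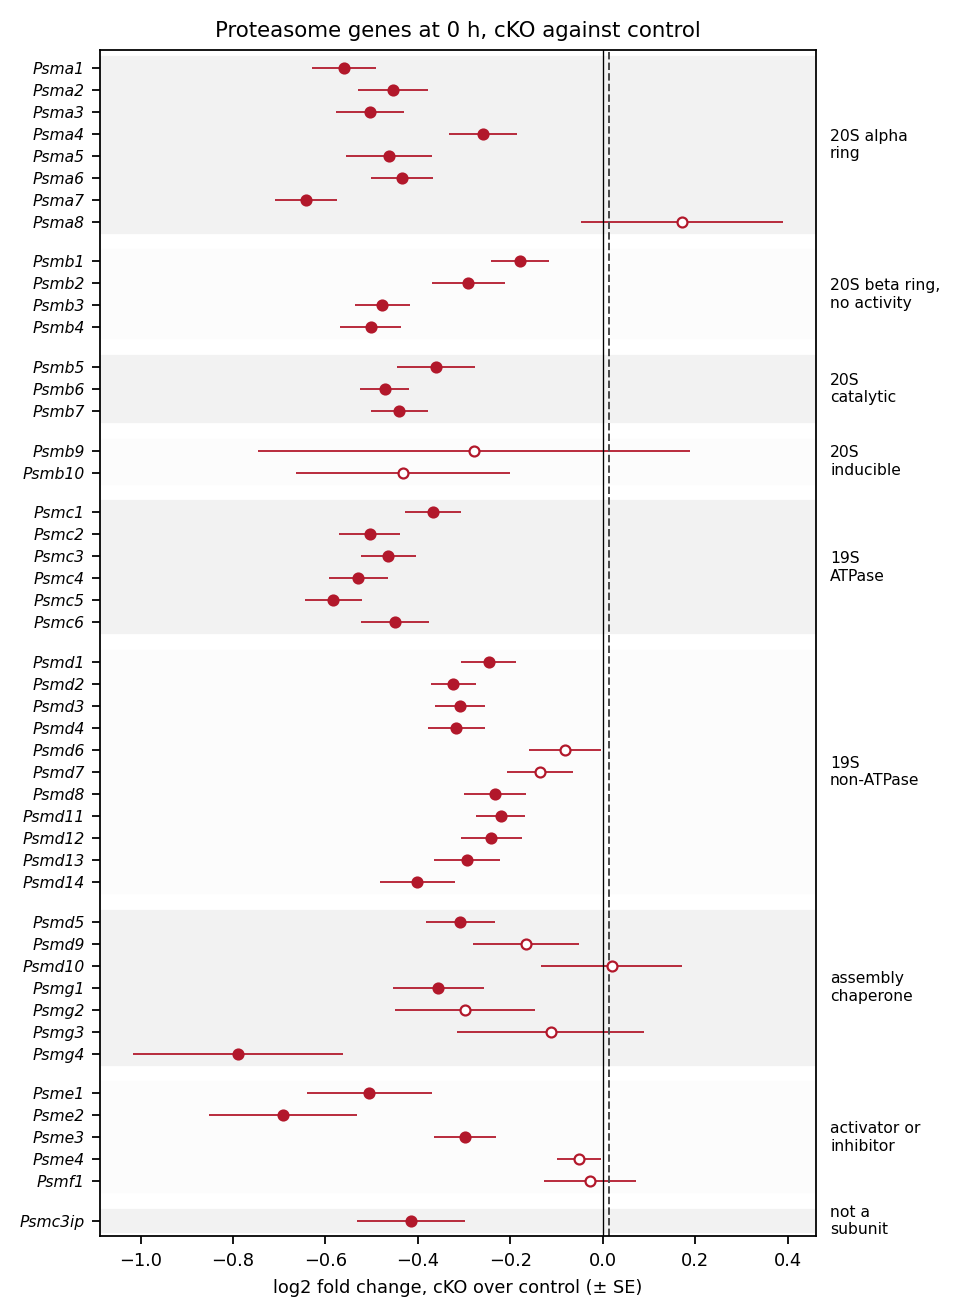
Log2 fold change of each of the 47 tested members in cKO over control libraries at 0 h, with standard errors, by role; filled points passed the test, open points did not, and the dashed line is the median of all 17900 genes tested, 0.0138. The 36 filled points all lie below 0.

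With spike-in scaling 43 members fell and 0 rose, where 7571 of all 17900 genes fell and 790 rose. The median of all genes moved to -0.355. Scaling shifts all genes of a library alike, so the distance of the members' median from that of all genes, -0.370, does not depend on it. Members were also low for their chromosomes, 43 of 47 lying below the median of the protein-coding genes tested on the same chromosome. Embryonic stem cell markers mostly moved in the same direction as the members. On the TMM scale, used for all marker tests here, 7 of 10 fell and 1 rose. Of all genes tested on that scale, 15.8% fell and 13.5% rose. The stem cell markers summed to 3259 to 3277 CPM in cKO, against 3907 to 3997 CPM in control. Endoderm markers summed to 96.0 to 114 CPM in cKO, against 150.0 to 155 CPM in control, with Foxa2 at 0 in both. Of these 6 markers only 4 were tested: 1 fell, 0 rose and their median log2 fold change was 0.0953, so the sum does not speak for the whole list. Mitochondrial genes took 3.42% to 3.98% of gene reads in cKO libraries, against 2.32% to 2.70% in control libraries. The part of these in the result was not tested.

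After actinomycin D the members made up more of the remaining RNA. At 3 h, 42 of 47 rose and 1 fell in cKO libraries against 0 h, where 29.6% of all genes rose and 29.8% fell. In control libraries 39 rose and 2 fell at 3 h, where 29.3% of all genes rose and 27.1% fell. At 6 h, 38 rose and 1 fell in cKO libraries, where 29.6% of all genes rose and 31.3% fell, and 33 rose and 8 fell in control libraries, where 33.1% and 31.7% did. The members' median log2 change was 0.753 at 3 h and 0.732 at 6 h in cKO, and 0.599 and 0.486 in control. Of the members that rose by 6 h, 32 rose in both genotypes, which is 84.2% of those in cKO and 97% of those in control. The same overlap over all genes is not given here, so these shares do not show a trait of the members.

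These changes are relative to other RNAs, and the spike-ins place them on another scale. With spike-in scaling, 6 members rose and 24 fell in cKO by 6 h, and 6 rose and 30 fell in control. Of all 17900 genes tested, 587 rose and 12249 fell in cKO, and 1312 rose and 11284 fell in control. The median of all genes then stood at -0.964 in cKO and -0.884 in control. So on the spike-in scale more members were lower than higher by 6 h, and the same held over all genes. The members' median lay 0.723 above that of all genes in cKO and 0.453 in control with TMM factors, a distance that scaling leaves as it is. At 3 h spike-in scaling gave 47 higher and 0 lower in cKO, where 14992 of all genes were higher and 482 lower. In control it gave 9 higher and 12 lower, where 1287 of all genes were higher and 9147 lower. The cKO counts rest on the libraries whose spike-ins stand apart, which moved the median of all genes to 1.86. All values below are on the TMM scale.

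The constitutive catalytic genes rose in both genotypes. Psmb5 had 41.8 and 40.3 CPM at 0 h, 89.5 and 94.9 CPM at 3 h and 93.6 and 96.4 CPM at 6 h in cKO libraries. In control libraries it had 53.0 and 52.5 CPM at 0 h, 81.1 and 90.5 CPM at 3 h and 153 and 169 CPM at 6 h. The libraries at 3 and 6 h overlapped in cKO, while in control both libraries at 6 h were above both at 3 h, with log2 changes by 6 h of 1.21 (SE 0.08) in cKO and 1.61 (SE 0.08) in control. Psmb6 rose by 1.01 (SE 0.05) in cKO and 1.09 (SE 0.05) in control by 6 h, and Psmb7 by 1.03 (SE 0.06) and 0.77 (SE 0.06). By 3 h Psmb5 had risen by 1.17 (SE 0.08) in cKO and 0.70 (SE 0.08) in control, Psmb6 by 1.36 (SE 0.05) and 0.80 (SE 0.05), and Psmb7 by 1.14 (SE 0.06) and 0.67 (SE 0.06).

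The inducible genes rose from low levels. Psmb10 had 3.91 and 4.02 CPM at 0 h, 8.07 and 7.17 CPM at 3 h and 5.71 and 6.44 CPM at 6 h in cKO libraries, and 5.74 and 5.04, 9.56 and 10.6, and 15.4 and 15.0 CPM in control libraries. It rose by 0.94 (SE 0.21) in cKO and 0.91 (SE 0.19) in control by 3 h, and by 0.65 (SE 0.23) and 1.50 (SE 0.18) by 6 h. Psmb9 rose by 1.32 (SE 0.42) in cKO and 1.07 (SE 0.39) in control by 6 h, and by 1.31 (SE 0.40) and 1.38 (SE 0.36) by 3 h. Of 6 leukocyte markers the 3 that passed the filter on low counts also rose by 6 h in both genotypes, and the list summed to 218 to 255 CPM in cKO and 118 to 119.8 CPM in control. Tyrobp was at 0 in both, and Ptprc, the marker of all leukocytes, was at 0 in control at 6 h and above 0 there at 0 h. Their part was not tested. In cKO the call of Psmb10 at 6 h was lost without replicate 1 or 2 at 0 h, at 0.63 and 0.665, or replicate 2 at 6 h, at 0.525. The calls of Psmb9 were lost in cKO without replicate 1 at 0 h, at 0.999 by 3 h and 1.01 by 6 h, and in control at 6 h without replicate 1 at 0 h, at 0.965, or replicate 2 at 6 h, at 0.90.

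Fewer alpha ring genes were higher by 6 h than at 3 h. At 3 h 8 of 8 had risen in cKO and 7 in control, where 29.6% and 29.3% of all genes had. By 6 h 6 were higher and 0 lower in cKO, where 29.6% and 31.3% of all genes were. In control 5 were higher and 2 lower, where 33.1% and 31.7% of all genes were. Psma7 rose by 1.40 (SE 0.07) in cKO and 0.89 (SE 0.06) in control by 3 h, and by 1.33 (SE 0.07) and 1.21 (SE 0.06) by 6 h. Psma1 had 70.7 and 71.5 CPM at 0 h, 144 and 144 CPM at 3 h and 125 and 121 CPM at 6 h in cKO libraries. In control libraries Psma1 had 109 and 101 CPM at 0 h, 144 and 144 CPM at 3 h and 93.5 and 88.3 CPM at 6 h, so it ended above its start in cKO and below it in control. Psma3 fell by 0.45 (SE 0.07) in control by 6 h. Psma8 rose by 3 h, by 1.17 (SE 0.19) in cKO and 0.66 (SE 0.20) in control, and stood at -0.02 (SE 0.22) and 0.20 (SE 0.21) by 6 h, which did not pass. Without control replicate 2 at 0 h the call of Psma8 in control at 3 h was lost, at 0.42.

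In the beta ring Psmb4 rose by 1.24 (SE 0.06) by 3 h and 1.26 (SE 0.07) by 6 h in cKO, and all 4 beta genes without activity rose in both genotypes. In the cap, Psmd3, a lid subunit, had 187 and 202 CPM at 0 h, 266 and 265 CPM at 3 h and 409 and 430.5 CPM at 6 h in cKO libraries, and 239 and 243, 359 and 378, and 668 and 674 CPM in control libraries. The level was higher at each later time in both genotypes, and the log2 change by 6 h in control was 1.48 (SE 0.05). Psmc6, an ATPase, had 122 and 101 CPM at 0 h, 201 and 202 CPM at 3 h and 113 and 116 CPM at 6 h in cKO, and 152 and 153, 179.6 and 159, and 108 and 109 CPM in control, where it fell by 0.49 (SE 0.07) by 6 h. The change of the ATPases by 6 h ran from 0.03 for Psmc6 to 1.13 for Psmc1 in cKO, and from -0.49 to 1.05 for the same genes in control. Over all genes tested the lower and upper quartiles of this change were -0.746 and 0.613 in cKO, and -0.783 and 0.738 in control.

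The chaperone Psmg3, which acts on the alpha ring, went the other way. It had 8.57 and 10.2 CPM at 0 h, 6.20 and 5.37 CPM at 3 h and 7.54 and 5.00 CPM at 6 h in cKO libraries, and 11.3 and 9.16, 4.41 and 5.12, and 4.74 and 4.86 CPM in control libraries. It fell by 0.70 (SE 0.22) in cKO and 1.07 (SE 0.22) in control by 6 h, and by 0.70 (SE 0.21) and 1.08 (SE 0.21) by 3 h. In cKO the call at 6 h was lost without replicate 2 at 0 h, at -0.58, or replicate 2 at 6 h, at -0.31, and that at 3 h without replicate 2 at 0 h, at -0.59, or replicate 2 at 3 h, at -0.595. Its fellow chaperone Psmg1 rose by 0.84 (SE 0.09) in control by 3 h.

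The activators differed by family. By 6 h Psme1 rose by 1.12 (SE 0.13) in cKO and 1.05 (SE 0.12) in control, and Psme2 by 1.10 (SE 0.16) and 1.01 (SE 0.13). Psme3 rose by 0.38 (SE 0.07) in cKO and 0.15 (SE 0.07) in control. Psme4 stood at 0.09 (SE 0.05) in cKO, which did not pass, and fell by 0.12 (SE 0.05) in control. The inhibitor Psmf1 stood at 0.17 (SE 0.10) in cKO, which did not pass, and fell by 0.36 (SE 0.10) in control. By 3 h Psme1 had risen by 0.48 (SE 0.13) in cKO and 0.74 (SE 0.12) in control, Psme2 by 0.84 (SE 0.15) and 0.47 (SE 0.13), and Psme4 by 0.52 (SE 0.05) and 0.32 (SE 0.05). Psme3 stood at -0.03 (SE 0.07) in cKO at 3 h, which did not pass, and rose by 0.27 (SE 0.06) in control. Psmf1 stood at -0.03 (SE 0.10) in cKO at 3 h, which did not pass, and fell by 0.38 (SE 0.10) in control. In control at 6 h the call of Psme3 was lost without replicate 1 or 2 at 0 h, at 0.15 each, or replicate 2 at 6 h, at 0.11, and that of Psme4 without replicate 1 at 0 h or replicate 1 at 6 h, at -0.10 each. At 3 h the call of Psme2 in control was lost without replicate 2 at 0 h, at 0.375, and that of Psme1 in cKO without replicate 2 at 3 h, at 0.35. Psme4 passed in cKO at 6 h without replicate 1 at 0 h, at 0.15.

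**Figure D4:**
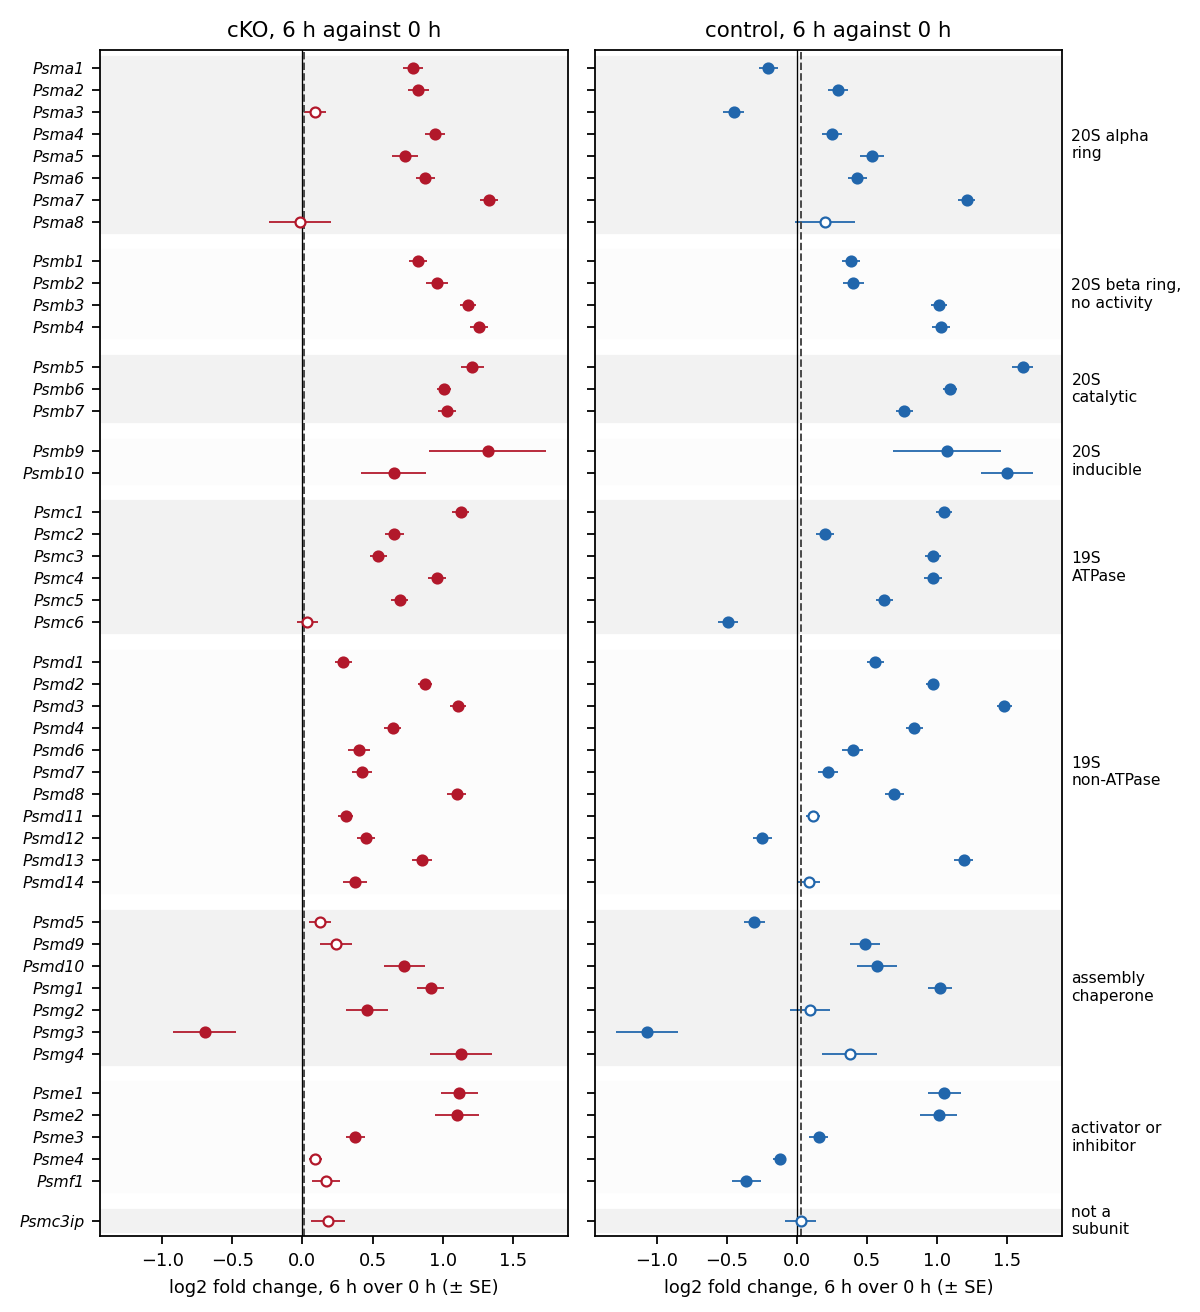
Log2 change by 6 h of actinomycin D against 0 h for the 47 tested members, cKO left of control, with standard errors, on the TMM scale; filled points passed the test and dashed lines are medians of all genes tested. In cKO 38 members are higher and 1 lower, in control 33 are higher and 8 lower.

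The change in cKO was then set against the change in control. At 3 h the difference, cKO minus control, was called higher for 18 members and lower for 3, where 11.0% of all genes were called higher and 8.39% lower, and its median was 0.290 for members and 0.00264 for all genes. At 6 h it was called higher for 15 and lower for 6, where 9.77% and 9.35% of all genes were, and its median was 0.197 for members and -0.0335 for all genes. This difference contains the lower level in cKO at 0 h: the median log2 ratio of cKO over control was -0.348 at 0 h, -0.129 at 3 h and -0.114 at 6 h, with 46, 28 and 28 of 47 members below 0. The gap between the genotypes was thus narrower in the median after the drug. With spike-in scaling the 3 h difference was called higher for 47 and lower for 0, again with the 3 h cKO libraries. Of all 17900 genes, 15997 were then called higher and 0 lower. With library size alone the 6 h difference was called higher for 25 members and lower for 2. There 2938 of all genes were called higher and 993 lower, with a median of 0.111 for all genes.

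At 6 h the largest difference was that of Psma1, at 0.99 (SE 0.10, edgeR adjusted p = 1.06e-09). Psmd12, a lid subunit, followed at 0.70 (SE 0.09), then Psma4 at 0.69 (SE 0.10) and Psmb2 at 0.56 (SE 0.11). Psmf1 stood at 0.53 (SE 0.14). In the other direction lay Psmb10 at -0.85 (SE 0.30, edgeR adjusted p = 0.0411), Psmc3, an ATPase, at -0.43 (SE 0.08), Psmb5 at -0.40 (SE 0.11) and Psmd3 at -0.37 (SE 0.08). The members that went down more, or up less, in cKO therefore included a catalytic gene of each kind, constitutive and inducible. At 3 h the largest differences were those of Psmd5, a chaperone of the cap, at 0.72 (SE 0.10), Psmc6 at 0.70 (SE 0.10), Psmb1 at 0.64 (SE 0.09) and Psmd11, a lid subunit, at 0.60 (SE 0.07). The lowest were those of Psmb2 at -0.40 (SE 0.11), Psmc1 at -0.32 (SE 0.08) and Psme3 at -0.29 (SE 0.09). Psmb5 had the opposite sign at 3 h, 0.46 (SE 0.11), and so did Psmb2. Psmb6 and Psmb7 were higher at 3 h, at 0.55 (SE 0.07) and 0.46 (SE 0.08), and stood at -0.08 (SE 0.07), which did not pass, and 0.26 (SE 0.09) at 6 h. Psme4 was higher at both times, at 0.20 (SE 0.07) and 0.21 (SE 0.07). The differences of Psma8 (0.52 (SE 0.27) at 3 h and -0.21 (SE 0.31) at 6 h), Psmb9, Psme1 and Psme2 did not pass at either time, nor did those of Psmb10 and Psmf1 at 3 h and of Psme3 at 6 h.

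Some of these differences rested on single libraries. At 6 h that of Psmb10 was lost without any 1 of the 8 libraries, with values from -0.979 to -0.748, and that of Psmb5 without control replicate 2 at 6 h, at -0.32. The difference of Psmf1 at 6 h was lost without control replicate 2 at 0 h, at 0.46, or cKO replicate 2 at 6 h, at 0.42. That of Psmb7 at 6 h was lost without control replicate 1 at 0 h, control replicate 1 or 2 at 6 h, cKO replicate 2 at 0 h or cKO replicate 2 at 6 h, with values from 0.229 to 0.278. The small difference of Psme4 was lost at 6 h without cKO replicate 2 at 0 h, cKO replicate 1 or 2 at 6 h, control replicate 1 at 0 h or control replicate 1 at 6 h, with values from 0.16 to 0.218. At 3 h it was lost without cKO replicate 2 at 0 h, cKO replicate 1 or 2 at 3 h, control replicate 1 or 2 at 0 h or control replicate 2 at 3 h, with values from 0.136 to 0.217. That of Psme3 at 3 h was lost without cKO replicate 2 at 0 h, cKO replicate 1 at 3 h, control replicate 1 or 2 at 0 h or control replicate 1 at 3 h, with values from -0.31 to -0.257. Psme3 passed at 6 h without cKO replicate 1 at 6 h, at 0.29, and Psmf1 at 3 h without cKO replicate 2 at 0 h, at 0.45, or control replicate 1 at 3 h, at 0.43.

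In the Mettl3 experiment, without the drug, the libraries labelled KO1 and KO2 gave different pictures. In KO1, 35 of 47 members rose and 2 fell against the control, where 23.9% of all 21802 genes tested rose and 22.2% fell; the median was 0.261 for members and -0.0148 for all genes. In KO2, 17 rose and 9 fell, where 24.4% and 26.4% of all genes did; the median was 0.0726 for members and -0.0297 for all genes. The shares called in KO2 were closer to those of all genes. Set against each other directly, 33 members were higher in KO1 than in KO2 and 4 lower, where 24.5% and 21.6% of all genes were, with a median of 0.256. These comparisons share libraries and are not independent of each other. With spike-in scaling 41 rose and 0 fell in KO1, 42 rose and 1 fell in KO2, and 7 were higher and 24 lower in KO1 than in KO2. Of all 21802 genes, 7585 rose and 2985 fell in KO1, and 12359 rose and 1458 fell in KO2. Over all genes 1663 were higher and 10483 lower in KO1 than in KO2. The median of all genes then stood at 0.169 in KO1, 0.533 in KO2 and -0.383 in KO1 over KO2, so directions are given on the TMM scale.

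In KO1 the rise ran through 7 of 8 alpha ring genes, 4 of 4 beta ring genes without activity, 3 of 3 constitutive catalytic genes, 5 of 6 ATPases and 8 of 11 other cap subunits. Psma4, an alpha ring subunit, had 194 and 195 CPM in KO1 and 151 and 140.2 CPM in KO2, against 113 and 131 CPM in control. All KO libraries were above both control libraries, and its log2 fold change in KO1 was 0.67 (SE 0.05, edgeR adjusted p = 2.16e-13). Psmb5 had 39.6 and 36.8 CPM in KO1 and 31.5 and 29.9 CPM in KO2, against 33.6 and 32.2 CPM in control; it rose by 0.22 (SE 0.07) in KO1 and stood at -0.10 (SE 0.07) in KO2, which did not pass. Psmb6 rose by 0.30 (SE 0.05) in KO1 and 0.16 (SE 0.05) in KO2, and Psmb7 rose by 0.24 (SE 0.06) in KO1 and stood at -0.05 (SE 0.07) in KO2, which did not pass. Psma3 fell by 0.39 (SE 0.04) in KO2. The call of Psmb5 in KO1 was lost without KO1 replicate 1, at 0.16, or control replicate 2, at 0.19, and that of Psmb6 in KO2 without control replicate 2, at 0.08.

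The chaperone Psmg4 had the largest log2 fold change of the 47 in both lines. It had 22.0 and 22.7 CPM in KO1 and 32.8 and 33.7 CPM in KO2, against 13.1 and 13.0 CPM in control, and the 3 groups did not overlap. It rose by 0.77 (SE 0.09) in KO1 and 1.35 (SE 0.09) in KO2. Psmd10, a chaperone of the cap, rose by 0.70 (SE 0.14) in KO1, and Psmg2 by 0.49 (SE 0.11) in KO2. Psmd9 fell by 0.28 (SE 0.10) in KO1. Psmg3 had 6.98 and 6.90 CPM in KO2, against 10.6 and 9.96 CPM in control, and fell by 0.56 (SE 0.14), which spike-in scaling brought to 0.00152. The call of Psmd9 in KO1 was lost without KO1 replicate 1, at -0.12, or control replicate 1, at -0.20.

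The activators parted between the lines. Psme1 had 33.7 and 39.6 CPM in KO1 and 19.9 and 19.1 CPM in KO2, against 27.7 and 23.1 CPM in control; it rose by 0.52 (SE 0.08) in KO1 and fell by 0.38 (SE 0.09) in KO2, where spike-in scaling turned the sign. Psme2 rose by 0.69 (SE 0.11) in KO1 and stood at -0.14 (SE 0.12) in KO2, which did not pass. Psme4 had 262 and 270.4 CPM in KO1 and 387 and 366 CPM in KO2, against 252 and 275 CPM in control. It overlapped the control in KO1, at 0.01 (SE 0.04), and rose by 0.51 (SE 0.04) in KO2. Psme3 rose by 0.18 (SE 0.05) in KO1 and stood at -0.08 (SE 0.05) in KO2, and Psmf1 stood at 0.16 (SE 0.08) and 0.08 (SE 0.08); the last 3 values did not pass. Psma8 stood at -0.01 (SE 0.16) in KO1, which did not pass, and rose by 0.50 (SE 0.15) in KO2. Without KO2 replicate 2 the call of Psma8 in KO2 was lost, at 0.44, and without control replicate 1 Psme3 passed in KO2, at -0.13.

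Psmd7, the lid subunit that pairs with Psmd14, had 173 and 176 CPM in KO1 and 121 and 119.5 CPM in KO2, against 204 and 207 CPM in control, and fell by 0.24 (SE 0.04) in KO1 and 0.78 (SE 0.04) in KO2. Psmb10 had 5.02 and 3.82 CPM in KO1 and 2.30 and 2.33 CPM in KO2, against 3.34 and 4.34 CPM in control; it stood at 0.21 (SE 0.21) in KO1, which did not pass, and fell by 0.73 (SE 0.24) in KO2. Psmb9 stood at -0.03 (SE 0.64) in KO1 and -0.32 (SE 0.67) in KO2, and neither passed. Psmd7 and Psmb10 lie on chromosome 8, at chr8:107580381-107588464 and chr8:105935735-105938444 (mm10). The median of the protein-coding genes tested on that chromosome was -0.505 in KO1 and -0.439 in KO2. The 5 members tested on chromosome 14 were higher in KO1 than in KO2, Psmb5 by 0.32, Psmc6 by 0.56, Psmd6 by 0.68, Psme1 by 0.91 and Psme2 by 0.83 on the log2 scale. The median of that chromosome was 0.298 in the same comparison. After each member's chromosome median was taken off, 41 of 47 lay above 0 in KO1 and 29 in KO2; the part of the chromosomes in these results was not tested. Without control replicate 2 the call of Psmb10 in KO2 was lost, at -0.53.

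Summed levels of markers of cell state and of feeder cells also differed between the lines. A sum can rest on few genes and does not speak for a whole list. Embryonic stem cell markers summed to 5088 to 5092 CPM in KO1 and 3443 to 3487 CPM in KO2, against 3931 to 4014 CPM in control. Fibroblast feeder markers summed to 193 to 198 CPM in KO1 and 514 to 517 CPM in KO2, against 201 to 218 CPM in control, with none of the 8 at 0. Leukocyte markers summed to 104 to 109 CPM in KO1 and 69.0 to 71.0 CPM in KO2, against 105 to 106 CPM in control, and endoderm markers to 683 to 695 CPM in KO1 and 515 to 517 CPM in KO2, against 791 to 798 CPM in control. Mitochondrial genes took 1.50% of gene reads in both KO1 libraries and 3.68% in both KO2 libraries, against 0.958% and 1.09% in control libraries. The part of these in the results was not tested.

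**Figure D5:**
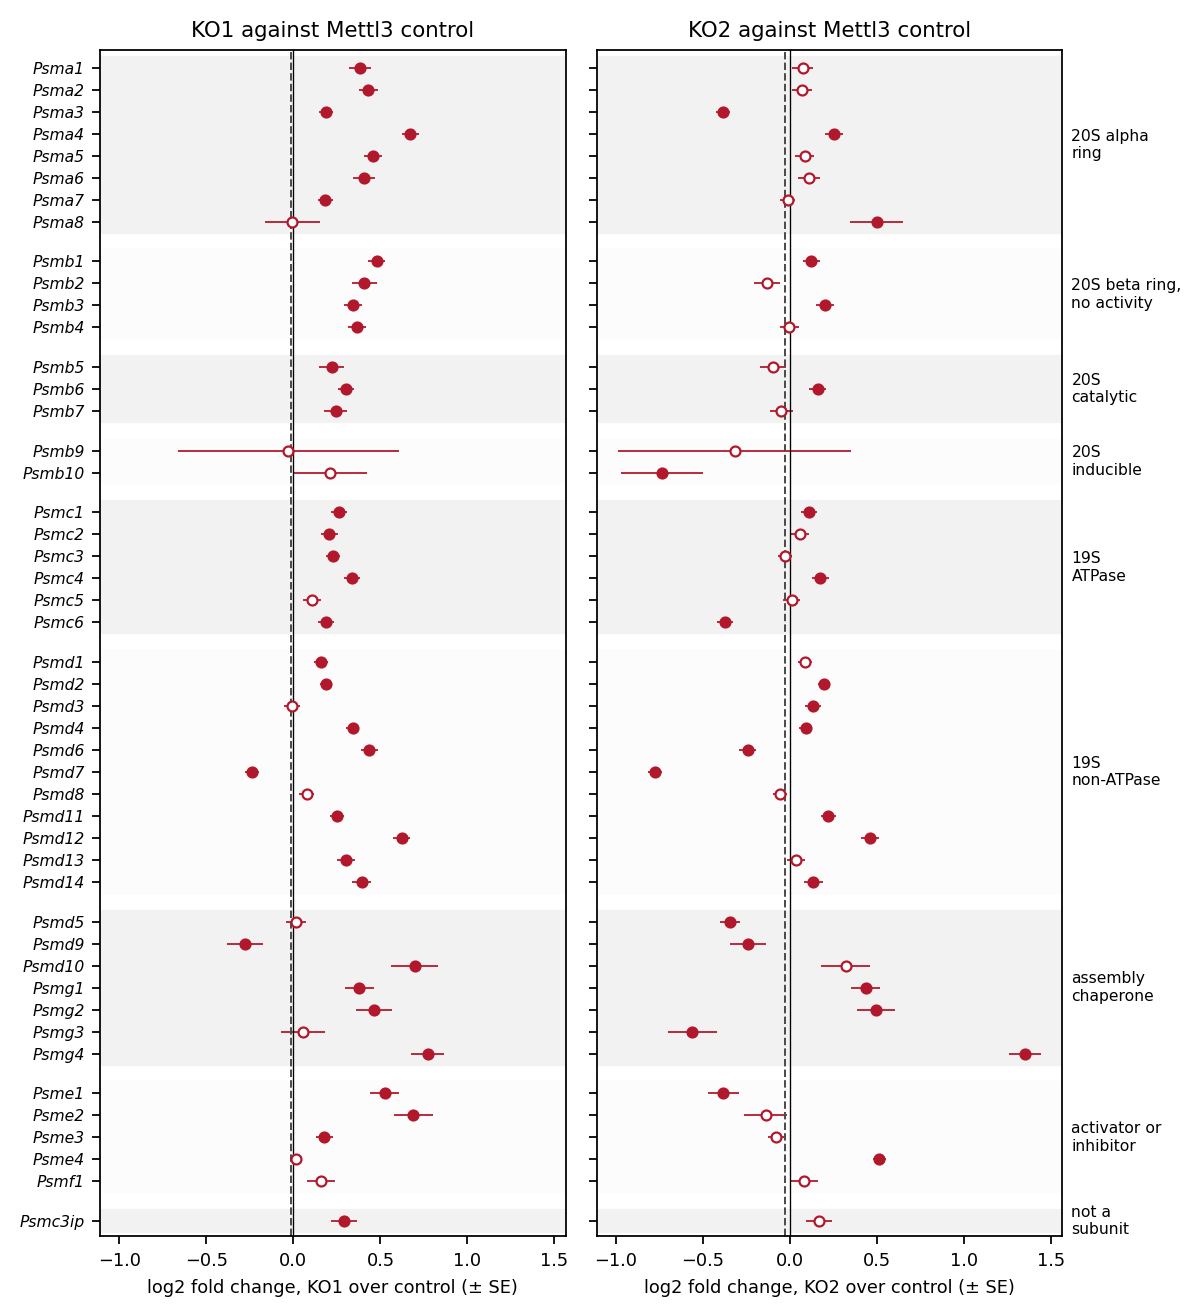
Log2 fold change of the 47 tested members over the Mettl3 control, KO1 left of KO2, with standard errors; filled points passed the test and dashed lines are medians of all 21802 genes tested. In KO1 35 members are higher and 2 lower, in KO2 17 are higher and 9 lower.

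Genes that work with the proteasome under other symbols were described from 5 lists, in which 48 of 49 genes were found. In cKO libraries at 0 h, 0 of the 15 bound and assembly partners rose and 7 fell, with a median log2 fold change of -0.17. Of all genes tested there, 13.5% rose and 15.8% fell. Pomp, the maturation factor of the core, fell by 0.31 (SE 0.09). The ubiquitin gene Ubb stood at -0.12 (SE 0.14) and Rps27a, which encodes ubiquitin fused to a ribosomal protein, at -0.10 (SE 0.13), and neither passed. Of 10 genes of transcriptional control 2 rose and 3 fell: Nfe2l1 had a log2 fold change of -0.39 (SE 0.05, edgeR adjusted p = 9.88e-08), Mafg, which encodes a partner of its product, fell by 0.36 (SE 0.07), and Ngly1, whose product removes sugars from that factor, rose by 0.62 (SE 0.20). Of 6 genes of the p97 unfoldase 1 rose and 3 fell. Of 13 interferon and antigen presentation genes 5 rose and 1 fell, with Nlrc5, a regulator of antigen presentation, at 1.78 (SE 0.32) and B2m at 1.27 (SE 0.19).

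By 6 h of the drug 7 of the 15 partners rose and 5 fell in cKO, where 29.6% of all genes rose and 31.3% fell. In control 4 rose and 6 fell, where 33.1% and 31.7% of all genes did. Zfand5, which is known to raise proteasome activity, fell by 2.21 (SE 0.12) in cKO and 2.27 (SE 0.12) in control. Akirin2, which brings proteasomes into the nucleus, fell by 1.49 (SE 0.12) in cKO and 2.18 (SE 0.12) in control. Both fell where most subunits rose. Rps27a rose by 0.92 (SE 0.13) in cKO and 0.51 (SE 0.13) in control. Nfe2l1 rose by 0.43 (SE 0.05) in cKO and 0.92 (SE 0.05) in control, and the p97 gene Vcp by 0.55 (SE 0.06) and 0.93 (SE 0.06).

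In KO1 8 of the 15 partners rose and 4 fell, where 23.9% of all genes rose and 22.2% fell. In KO2 1 rose and 5 fell, where 24.4% and 26.4% of all genes did. Pomp rose by 0.44 (SE 0.06) in KO1 and stood at -0.03 (SE 0.06) in KO2, which did not pass. Nfe2l1 fell by 0.24 (SE 0.03) in KO1 and rose by 0.11 (SE 0.03) in KO2. Of the interferon and antigen presentation genes, Tap1 fell by 2.00 (SE 0.17) in KO1 and 1.56 (SE 0.16) in KO2.

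Gene structure was set against the change. Across the 47 members, the change by 6 h had a Spearman rho of -0.40 with the number of intron bases in cKO, against -0.091 over all 14147 protein-coding genes tested, and -0.44 in control, against -0.032. Psmb6, with 620 intron bases, rose in both genotypes by 6 h, and Psme4, with 100254, did not rise in either. Against this order, Psmg3, with 401, fell in both, and Psmd1, with 67500, stood above 0 in both. Single members therefore do not stand for the correlation. In KO1 the change had a rho of -0.53 with exon length, against -0.026 over 15220 protein-coding genes, and in KO2 it had -0.12, against 0.061. With intron bases the rho was -0.019 in KO1, against 0.021 over all, and 0.32 in KO2, against 0.12, the opposite sign to that after the drug. For cKO over control at 0 h it was 0.32 with exon length, against 0.17, and 0.26 with intron bases, against 0.14. These correlations run across genes of the same libraries, which are not independent replicates. Among the 39 tested members with a promoter window, 12 of 15 with the ETS core and 19 of 24 without it fell in cKO at 0 h. With the antioxidant response element core 4 of 6 fell, Psmb5 and Psmb6 among those shown above while Psme4, also shown, did not pass, and without it 27 of 33 fell.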

How the data were processed

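Nuclear RNA of 18 libraries was sequenced with 0.1 µl of ERCC spike-in per sample, per the labels' protocols. The values deposited by the authors are raw counts of reads for each gene and spike-in. Reads were handled with CASAVA, Trimmomatic 0.38, HISAT2 2.1.0 and HTSeq on mm10, per the submitters' processing notes; neither strand setting nor annotation release is given in the sources used here. Unique identifiers of molecules are not mentioned, so floors cover counting error only.

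Groups came from the labels. Counts of each experiment (12 Ythdc1 and 6 Mettl3 libraries) were fitted across all genes with edgeR 4.0.16 in R 4.3.3 (TMM factors, filterByExpr with a minimum count of 10, robust quasi-likelihood F test, 1 coefficient per group), leaving 17900 and 21802 genes. Genes were called at a Benjamini-Hochberg adjusted p under 0.05. SE is the log2 fold change divided by the square root of F. Symbols and coordinates came from GENCODE M21: 54409 of 54446 identifiers matched and 37 did not. The 5 HTSeq summary rows stayed out of library sizes. Spike-in rows, 92 of them, were used for scaling alone. Levels per kb use the union of exons.

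The members and lists were chosen with earlier results of these data known. Members given with a test were those of the inducible, catalytic and activator roles, Psma8, Psmf1 and the 4 highest and 4 lowest called in each comparison; from partner lists, the 2 highest and 2 lowest called, or all of a list of 5 or fewer; some partner genes the rule names are not reported here. Others given with a fold change, such as Psmc3ip, Psmc6 on chromosome 14 and the ends of a range, were chosen after their values were seen. Alternatives were DESeq2 1.42.0 size factors and Wald test, library size alone, spike-in scaling, no filter, 50 reads in 2 libraries, a replicate block, the compared libraries alone, and leaving out each library. Endoderm markers, also listed, had 0 of 4 tested genes higher and 1 lower in cKO at 0 h.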

Additional observations from a re-analysis of the deposited data

Results flagged for a closer look

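The results here are those in which 2 groups differed under the same contrast, by edgeR's test of the difference itself with adjusted p under 0.05, among the members named by rule. The log2 change by 3 h of actinomycin D differed between cKO and control cells, as cKO minus control, with Psmd5 at 0.72, Psmc6 at 0.70, Psmb1 at 0.64, Psmd11 at 0.60, Psmb6 at 0.55, Psmb5 at 0.46, Psmb7 at 0.46 and Psme4 at 0.20 above 0, and Psmb2 at -0.40, Psmc1 at -0.32 and Psme3 at -0.29 below 0. The log2 change by 6 h of actinomycin D differed between cKO and control cells, as cKO minus control, with Psma1 at 0.99, Psmd12 at 0.70, Psma4 at 0.69, Psmb2 at 0.56, Psmf1 at 0.53, Psmb7 at 0.26 and Psme4 at 0.21 above 0, and Psmb10 at -0.85, Psmc3 at -0.43, Psmb5 at -0.40 and Psmd3 at -0.37 below 0. KO1 and KO2, each set against the Mettl3 control, differed in the log2 fold change of KO1 over KO2, with Psmb10 at 0.94, Psme1 at 0.91, Psme2 at 0.83, Psmd6 at 0.68, Psmb5 at 0.32, Psmb7 at 0.29, Psme3 at 0.26 and Psmb6 at 0.14 above 0, and Psmg4 at -0.57, Psma8 at -0.50, Psme4 at -0.50 and Psmd3 at -0.14 below 0. Spike-in scaling turned the sign of Psmb2, Psmc1 and Psme3 at 3 h, where it rests on the cKO libraries with few spike-in reads, and of Psmb5, Psmb6, Psmb7 and Psme3 between KO1 and KO2. Between KO1 and KO2, the call of Psmb6 was lost without any 1 of the 4 KO libraries, with values from 0.122 to 0.143, that of Psmd3 without KO1 replicate 2 or KO2 replicate 2, at -0.13 and -0.14, and that of Psma8 without KO2 replicate 2, at -0.44.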

How the results depend on the processing

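Of the counts of members recomputed under the alternatives, 227 stayed within 1.5 times the value reported and 29 did not; for single members, 1732 values kept their direction and side of the threshold, 111 lost the call, 23 gained it and 31 changed sign with a call in at least 1 of the settings compared. A further 51 changed sign and were called in neither setting, with values of at most 0.397 in size; they belong to members near 0 or with few reads, such as Psma8 in cKO at 0 h (-0.195 with spike-in scaling, -0.101 without cKO replicate 2 and -0.0619 without control replicate 2). Of the 31, 30 came with spike-in scaling and 1, Psme3 in control at 6 h, with library size alone. With spike-in scaling, members higher and lower were 9 and 12 in control at 3 h, 6 and 30 in control at 6 h, 6 and 24 in cKO at 6 h, 47 and 0 for the difference at 3 h, 42 and 1 in KO2, and 7 and 24 in KO1 against KO2, with 0 lower in cKO at 3 h and in KO1. Signs changed in control at 3 h for Psme2 (-0.0515), Psme3 (-0.26) and Psme4 (-0.204), and at 6 h for Psma8 (-0.721), Psmb7 (-0.15) and Psme3 (-0.764, and -0.0407 with library size alone). They changed in cKO at 3 h for Psme3 (1.80), Psmf1 (1.80) and Psmg3 (1.13), and at 6 h for Psmb10 (-0.325), Psme3 (-0.597), Psme4 (-0.875) and Psmf1 (-0.807). They changed for the difference at 3 h for Psmb2 (1.96), Psmb9 (2.28), Psmc1 (2.04), Psme1 (2.09) and Psme3 (2.06). They changed in KO2 for Psma3 (0.179), Psmb5 (0.466), Psmb7 (0.514), Psme1 (0.18), Psme2 (0.423), Psme3 (0.486) and Psmg3 (0.00152), and for KO1 against KO2 for Psmb5 (-0.0622), Psmb6 (-0.238), Psmb7 (-0.088), Psme3 (-0.125) and Psmf1 (-0.303). Library size alone gave 25 higher and 2 lower for the difference at 6 h and 10 higher in KO2. With that setting 4661 of all 21802 genes were higher in KO2, a share close to that of the members. Without a filter 1 was lower for the difference at 6 h and 1 in KO1, as with the DESeq2 Wald test in KO1, and with 50 reads in 2 libraries 2 were lower in cKO at 3 h. The cause of these changes was not tested. Counts over all genes with spike-in scaling are given with the results above. Leaving out 1 library at a time gave 0 to 0 higher and 29 to 35 lower in cKO at 0 h, 35 to 39 and 2 to 2 in control at 3 h, 30 to 33 and 6 to 8 in control at 6 h, 39 to 42 and 0 to 1 in cKO at 3 h (0 without cKO replicate 2 at 0 h or 3 h), 36 to 38 and 0 to 1 in cKO at 6 h (0 without cKO replicate 2 at 0 h or 6 h), 15 to 19 and 2 to 4 for the difference at 3 h, 12 to 16 and 2 to 6 for that at 6 h (2 without control replicate 2 at 6 h), 34 to 36 and 1 to 2 in KO1 (1 without control replicate 1 or KO1 replicate 1), 12 to 16 and 8 to 10 in KO2, and 25 to 29 and 2 to 4 for KO1 against KO2 (2 without KO2 replicate 2). Replicate numbers did not pair the samples (correlations of deviations from -0.0337 to 0.0426); with a replicate block 36 members were lower in cKO at 0 h. Few reads limit Psmb8, Psmb9, Psmb11 and Psme2b.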
